A study of Carassius auratus with 4 samples.

Results

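The probes described here are the clones of a goldfish (Carassius auratus) cDNA array whose printed description matched a set of names for markers of myelin, glia, nerve endings or neurofilaments. They were chosen by matching the array's description of each clone, ignoring case, to "myelin", "glial fibrillary", "neurofilament", "gefiltin", "plasticin", "synuclein", "neurogranin", "neuromodulin", "GAP-43" or "S-100", with ependymin left out. The match found 41 of the 8089 probes tested. They were 17 myelin basic protein clones, 3 clones of other myelin proteins, 1 clone of glial fibrillary acidic protein (GFAP), 2 of alpha-internexin, 6 synuclein clones, 2 neurogranin clones, 1 neuromodulin clone and 8 S-100 clones. The last of the 41, probe 60j01 (sphingomyelin phosphodiesterase 2), matched only because its name contains the letters of "myelin", and it is a lipid-cleaving enzyme rather than a myelin protein. Its log2 ratios of secretoneurin over control were 0.22, 0.18, -0.20 and -0.02 on replicates 1 to 4, on both sides of 0, and it was not above background on any array. The names gefiltin and plasticin, neurofilament proteins of the goldfish visual pathway, matched 0 probes, and "neurofilament" matched only the alpha-internexin clones. Whether a clone printed under another name, such as alpha-internexin, encodes either protein was not tested. In these data 0 of the 41 probes passed the test between secretoneurin-treated and control cells, as did 0% of all probes. Only 1 of the 41, S-100 alpha chain (39n11), gave a signal above background in both channels on each of the 4 arrays. That is 2.44% of the markers, against 10.4% of all probes.

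The 4 arrays each received 2 RNAs, 1 from dispersed goldfish pituitary cells treated with 10 nM goldfish secretoneurin for 12 h and 1 from control pituitary cells. Secretoneurin (SN) is a peptide cut from secretogranin II. The labels give pituitaries of both sexes as the tissue and describe the controls as cells without incubation, so the peptide and the incubation cannot be told apart from the labels. The dyes were swapped between arrays: RNA of secretoneurin-treated cells was in the Cy5 channel on replicates 1 and 3, and in the Cy3 channel on replicates 2 and 4. Whether the 4 RNA pairs stem from different cultures is not stated in the labels; the p-values below cover the spread among these samples alone, and that spread may be technical.

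In mammals myelin basic protein and, in the central nervous system, proteolipid protein hold together the layers of the myelin sheath. Oligodendrocytes make the sheath in the central nervous system and Schwann cells make it around peripheral nerves. GFAP is the intermediate filament of astrocytes and of pituicytes, the glial cells of the neurohypophysis. S-100 beta is a calcium-binding protein of glia and, in mammals, of the folliculostellate cells of the anterior pituitary. Alpha-internexin, the synucleins, neurogranin and neuromodulin belong to neurons: a filament of the axon, proteins of the presynaptic ending, a calmodulin-binding protein of dendrites and a protein of growing axon tips. In teleosts hypothalamic axons enter the pituitary and end directly among the hormone cells, so these transcripts bear on how much glia and nerve tissue a preparation of dispersed cells holds. The transcripts of a neuron lie mostly in its cell body, which in this system is in the brain and not in the pituitary. Fewer cells of a type and less RNA per cell cannot be told apart in such bulk samples.

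The arrays differed in ways that touch every ratio below. Each clone was printed in 2 spots. Pituitary hormones gave strong signals, with 3 of the 4 hormone probes (2 for growth hormone and 1 for thyrotropin beta subunit) above background in both channels on each of the 4 arrays, and the GTH-II probe in both channels on none. Over 8026 probes the log2 ratio of secretoneurin over control on replicate 2 correlated at r = -0.61 with that on replicate 4, although both carried secretoneurin in Cy3 and both the labels and the file headers state the dyes. A group of 173 probes lay above 1 on replicate 2 and below -1 on replicate 4, and 0 probes lay the other way round. Of all 8089 probes 173 were in this group, and of the 41 marker probes 1 was, the myelin basic protein clone 27p11. Lying outside the group was thus common to most probes and not particular to the markers. On every array where they had a value, 37 of the 41 stayed within 0.5 of 0, and the share over all probes is not given here. Over the 40 marker probes with values on both arrays r was -0.41, and without 27p11, left out after its values were seen, it was -0.0099 over 39 probes. These correlations describe probes that share arrays and dyes and are not tests.

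**Figure D1:**
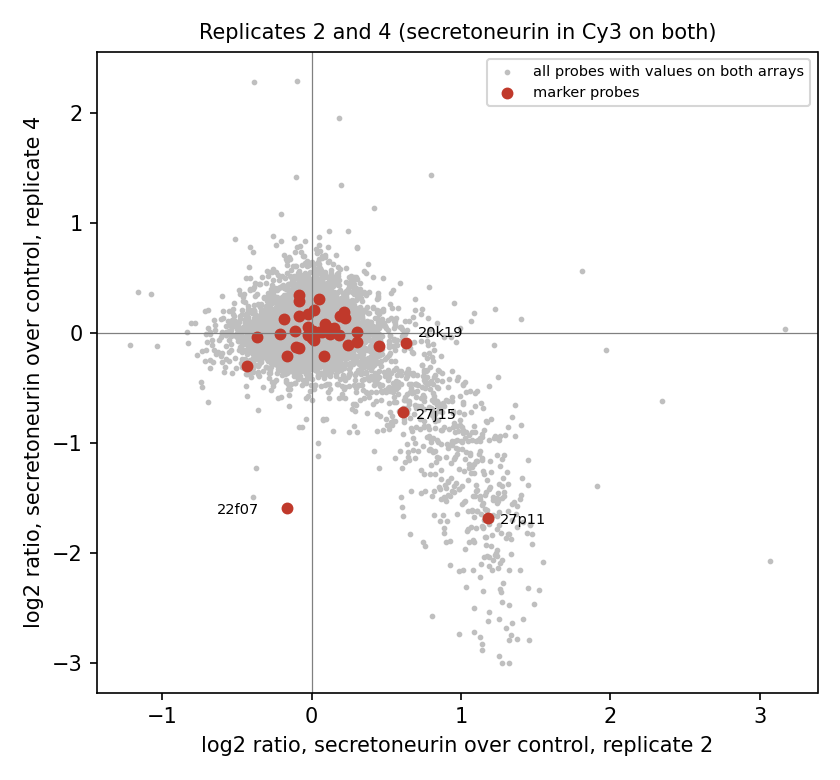
Log2 ratio of secretoneurin over control on replicate 2 (x axis) against replicate 4 (y axis), with 1 point per probe; grey points are all probes with values on both arrays and red points the marker probes. The tail at the lower right runs past 1 on replicate 2 and below -1 on replicate 4, and 27p11 (1.18 and -1.69) lies in it, while most marker probes lie near the origin.

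The marker probes were dim. A channel was called above background where the mean intensity of a clone's usable spots exceeded the local background plus 2 background SDs. In both channels on all 4 arrays this held for 1 of the 41 probes (2.44%) against 839 of all 8089 (10.4%), and in both channels on no array for 36 of 41 (87.8%) against 76.5% of all probes. No channel of any array was above background for 11 of the 41 (26.8%), against 14.5% of all probes. Mean signal, taken in log2 scanner units over both channels and all arrays, lay under the 95th percentile of the 776 empty and buffer spots (8.96) for 39 of the 41 probes (95.1%) and for 82.6% of all probes. The 2 probes above that percentile were 39n11 at 10.3 and 27p11 at 10.1. Of the 17 myelin basic protein clones 4 were never above background in either channel, as were 3 of the 6 synuclein clones, 2 of the 8 S-100 clones and 1 of the 2 alpha-internexin clones.

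**Figure D2:**
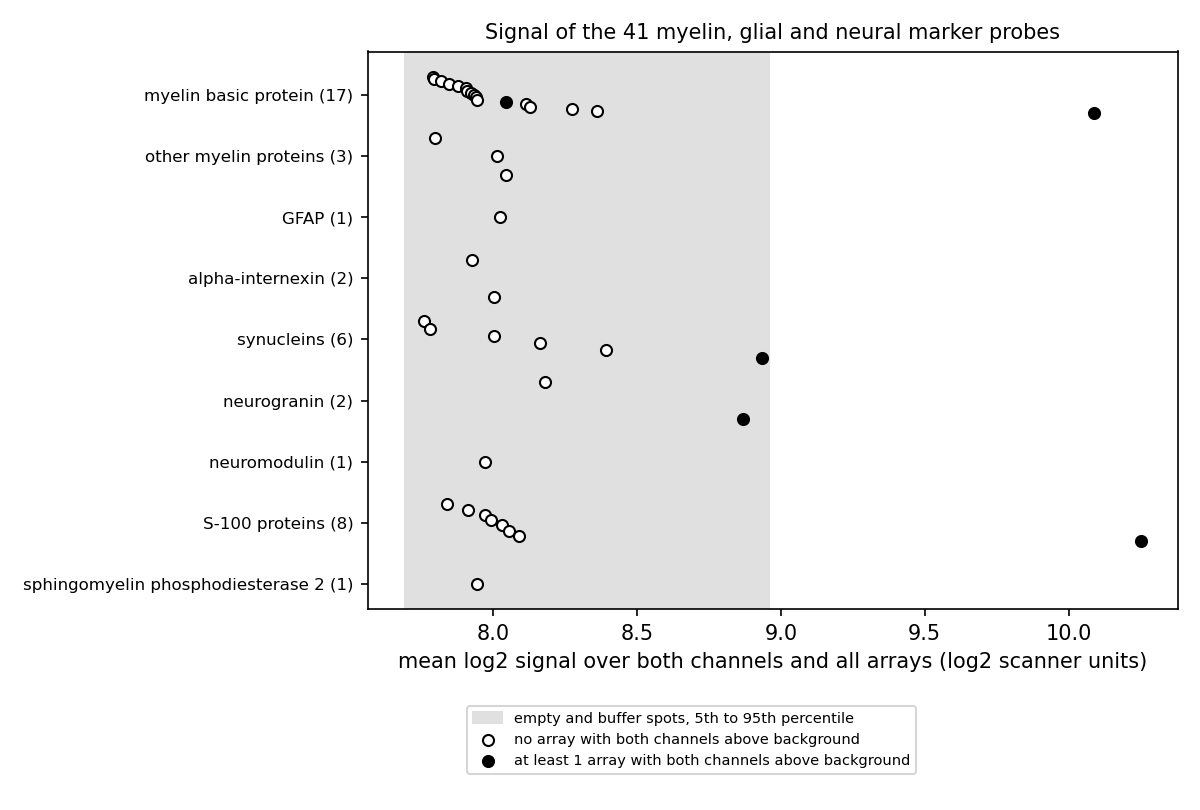
Mean log2 signal of each of the 41 probes (x axis, log2 scanner units, mean over both channels and all arrays) by protein family (y axis, number of probes in brackets), with the grey band from the 5th to the 95th percentile of empty and buffer spots. Filled points had both channels above background on at least 1 array; 39n11 and 27p11 are the points to the right of the band.

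Which channel passed the background threshold went with the dye. In Cy5 the signal of secretoneurin RNA was above background for 15 of the 41 probes on replicate 1 and 27 of 41 on replicate 3, and that of control RNA for 12 of 41 on replicate 2 and 11 of 40 on replicate 4. In Cy3 the counts were 5 and 3 of 41 for control RNA on replicates 1 and 3, and 3 of 41 and 1 of 40 for secretoneurin RNA on replicates 2 and 4. Over all probes the same shares were 52.7%, 75.4%, 45.1% and 39.9% in Cy5 on replicates 1, 3, 2 and 4, and 18.6%, 17.3%, 16.8% and 15.2% in Cy3. The Cy5 channel of replicate 3, which held secretoneurin RNA, had the highest share. With it, 15 of the 41 probes (36.6%) passed in secretoneurin RNA on some array and in control RNA on none, against 32.2% of all probes, and 1 probe passed only in control RNA, against 3.15%. For these 16 probes, raising the dim RNA to the lowest signal above background on each array gave ratios under 1, so no lower bound on a fold could be given. Where a log2 ratio is printed below for one of them, it is a ratio of measured signals of which 1 never passed the background threshold. The dye effect fitted beside the secretoneurin effect had an unadjusted p under 0.05 in 4 of the 41 probes, against 6.65% of all probes, and passed after adjustment in 0 members and 0% of all probes.

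The comparison asked which transcripts differed between secretoneurin-treated and control cells, with the peptide and the incubation not told apart. Ratios were fitted with limma, with a dye effect and a secretoneurin effect for each probe, with Benjamini-Hochberg adjustment across the 8089 probes and a threshold of 0.05. The adjusted p was 0.998 for every marker probe, so 0 of 41 passed, as did 0% of all probes. An unadjusted p under 0.05 was found in 0 of the 41, while 1.20% of all probes had one with a higher and 1.56% with a lower value in secretoneurin cells (2.76% in all, 97 and 126 probes). The smallest unadjusted p among the markers was 0.0641. From the ratios of the authors' deposited table, 3 of the 41 had an unadjusted p under 0.05, all with a higher value in secretoneurin cells. They were 60a09 (0.57), 20k19 (0.43) and 60d15 (0.38), named after their values were seen. Control RNA was above background on no array for each of them, and neither RNA was for 60a09 and 60d15. Over all 8085 probes with such ratios, 88 had one with a higher and 63 with a lower value. After adjustment 0 passed. With plain background subtraction such an unadjusted p was found in 2 higher and 0 lower markers (116 and 75 of all 8089 probes). With no background correction it was found in 0 and 1 (126 and 127 of all). An unmoderated test gave 1 and 1 (156 and 233 of all). The estimates of the main fit had a median of 0.0062 on the log2 scale against 0.0014 over all probes, with 23 above 0 and 18 below. Of the 40 probes with 4 values, 4 were above 0 and 3 below 0 on all 4 arrays, where 5.17% and 5.55% of all probes were (10.7% together).

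The precision of the dim probes was that of the array as a whole. The 2 spots of a marker clone differed by a median of 0.19 (log2, 155 pairs on single arrays), as over all probes. The median SE of the secretoneurin effect was 0.074 among markers and 0.071 among all probes. The 95% interval lay within 0.5 of 0 for 35 of the 41 markers, and the share over all probes is not given here. The median distance from an estimate to the end of its interval was 0.20 among markers and 0.19 among all probes. Such an interval covers the spread of the measured ratio, and for a probe near background that ratio can understate a difference in the RNA.

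**Figure D3:**
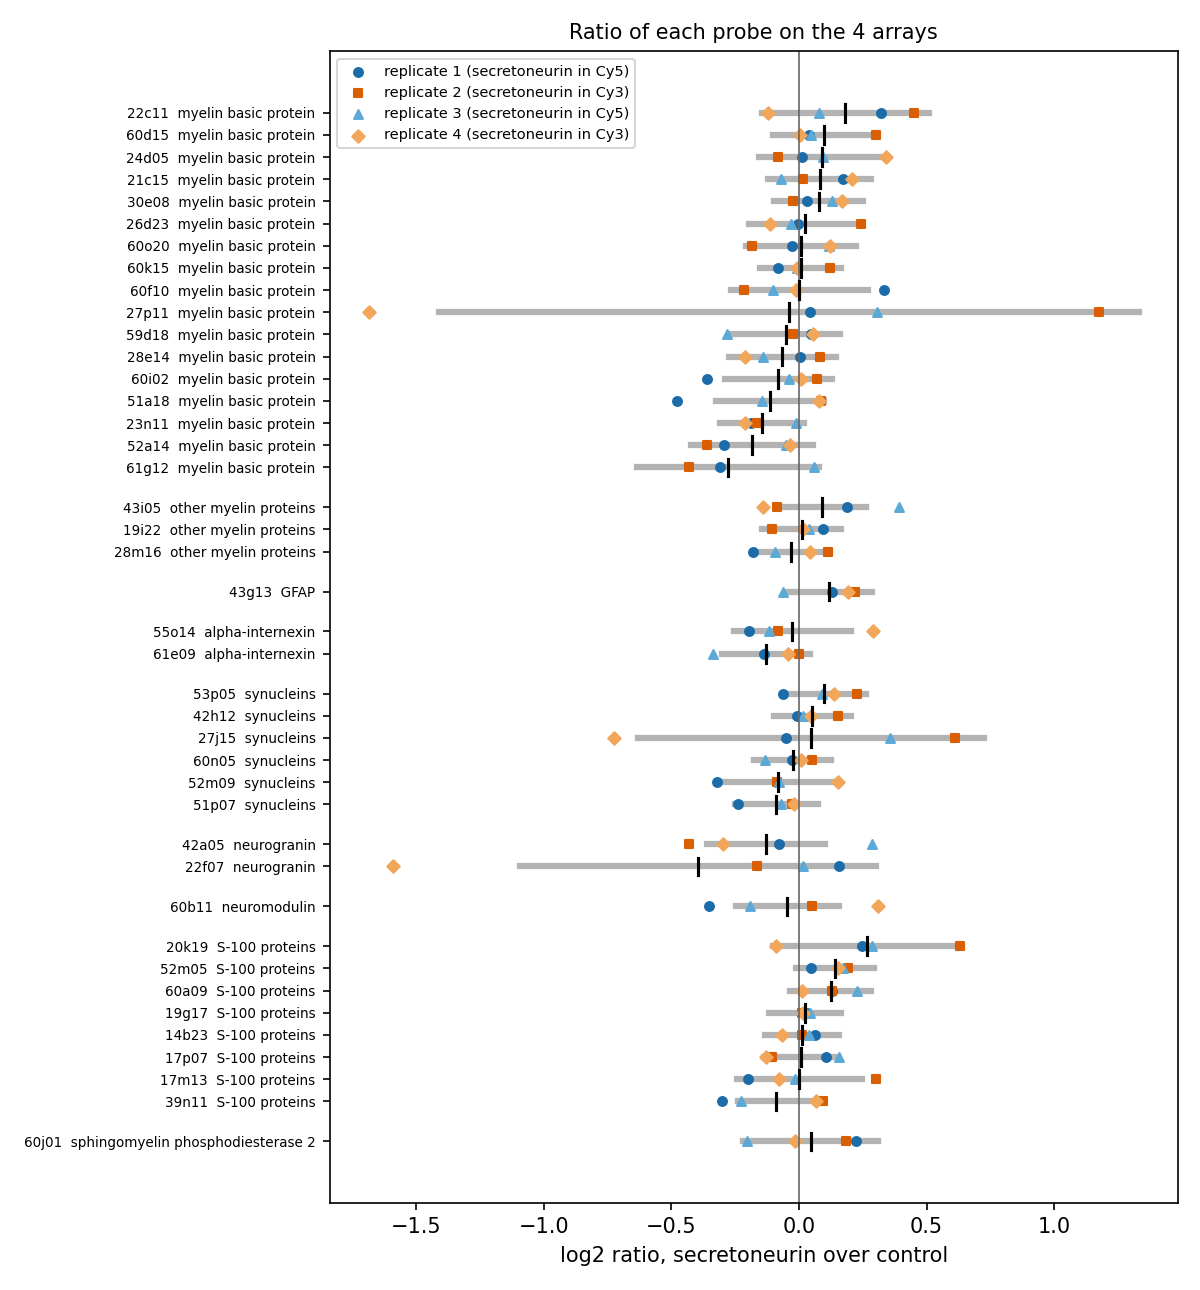
Log2 ratio of secretoneurin over control (x axis) for each of the 41 probes (y axis, grouped by family), with 1 symbol per array, a black bar for the limma estimate and a grey bar for its 95% confidence interval. All intervals cross 0, and the widest belong to 27p11 (-1.41 to 1.33) and 22f07 (-1.09 to 0.30), in which replicate 4 lies far below the other arrays.

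Among the myelin proteins, the 17 myelin basic protein clones gave estimates between -0.28 and 0.18, 9 above 0 and 8 below. Their mean ratio was -0.04, 0.06, -0.0028 and -0.09 on replicates 1 to 4, so the family's sign changed between arrays and its mean of -0.02 was smaller than the SD over arrays of 0.064. The signs of the means on replicates 2 and 4 rested on clone 27p11 alone, with ratios of 1.18 and -1.69 there. The clones carry the same name but may be different transcripts or gene copies, and they are not replicates of each other. Probe 61g12 had no usable spot on replicate 4 and was fitted on 3 arrays.

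Clone 27p11 was the brightest of the myelin basic protein clones and the only one above background in control RNA on all 4 arrays. On replicates 1 to 4 its log2 level was 10.1, 11.7, 10.3 and 8.29 in secretoneurin RNA. In control RNA its level was 10.1, 10.5, 9.98 and 9.98. The control levels lay close together, whereas the secretoneurin levels were the highest of all on replicate 2 and the lowest of all on replicate 4. Secretoneurin RNA was above background on replicates 1, 2 and 3 but not on replicate 4. The level of 8.29 and the ratio there thus rest on a channel that did not pass the background threshold. The ratios were 0.04, 1.18, 0.31 and -1.69, giving an estimate of -0.04 ± 0.50 (SE, n = 4 arrays, limma, unadjusted p = 0.940). Both spots showed the opposite ratios, with 1.24 and 1.11 on replicate 2 and -1.56 and -1.82 on replicate 4. The raw Cy3 intensities of the 2 spots, which measured secretoneurin RNA, were 6242 and 3528 on replicate 2 and 472 and 742 on replicate 4. Leaving out replicate 2 put the clone at -0.76 and leaving out replicate 4 put it at 0.68, so its direction depended on which of those 2 arrays was kept. Each of these fits held a single array with secretoneurin in Cy3, whose spread it cannot measure.

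Clone 23n11 had the smallest p among the myelin proteins. Its ratios were -0.19, -0.16, -0.01 and -0.21 on replicates 1 to 4, with an estimate of -0.14 ± 0.060 (SE, n = 4 arrays, limma, unadjusted p = 0.0726). All 4 arrays lay below 0, replicate 3 close to it, and only the Cy5 channel was above background, which held secretoneurin RNA on replicates 1 and 3 and control RNA on replicates 2 and 4. The other 2 clones in 1 direction were 52a14, between -0.36 and -0.04, and 60d15, between 0.0052 and 0.30, named here after their values were seen. The 3 clones of other myelin proteins, named myelin (43i05), proteolipid protein (19i22) and peripheral myelin protein 22 (28m16), had estimates of 0.09, 0.01 and -0.03. On replicates 1 to 4 the ratios of 43i05 were 0.19, -0.09, 0.39 and -0.14, above 0 where secretoneurin carried Cy5 and below 0 where it carried Cy3. The ratios of 28m16 were -0.18, 0.11, -0.10 and 0.04, with the opposite order of signs. The mean ratio of the 3 clones, 0.02, was smaller than its SD over arrays of 0.066.

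Among the glial markers, GFAP (43g13) was above background in secretoneurin RNA on 1 array and in control RNA on none. Its ratio was 0.13, 0.22, -0.06 and 0.19 on replicates 1 to 4, giving 0.12 ± 0.062 (SE, n = 4 arrays, limma, unadjusted p = 0.124). Replicate 3 opposed the other arrays. On replicate 1, the array with GFAP above background, the 2 spots disagreed, with ratios of 0.43 and -0.17. Their raw intensities in secretoneurin RNA were 693 and 140.

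The S-100 clones comprised 5 of the beta chain, 1 of the alpha chain and 2 named as similar to S-100P. Only the beta chain is described above as a protein of glia, so the alpha and S-100P clones are not read here as glial markers. Of the 8 S-100 estimates 7 were above 0, in a range from -0.09 to 0.27 with a median of 0.018. Over all probes 4089 of 8089 estimates were above 0, and whether the S-100 clones differed from that share was not tested. Control RNA was above background on no array for 6 of the 8 clones. The 1 estimate below 0 was that of the alpha clone, the only 1 above background in both channels on each of the 4 arrays. The family's mean ratio was 0.02, 0.16, 0.09 and -0.02 on replicates 1 to 4, with a mean of 0.06 and an SD over arrays of 0.078, so replicate 4 was on the other side of 0 and the mean was smaller than the spread. With plain background subtraction this mean was 0.149 and in the authors' deposited table it was 0.142, and without 1 replicate at a time it ranged from 0.0172 (without replicate 2) to 0.104 (without replicate 4).

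The S-100 alpha clone 39n11 was the 1 marker probe above background in every channel of every array. Its log2 level was 10.2, 10.1, 9.78 and 10.7 in secretoneurin RNA on replicates 1 to 4. In control RNA it was 10.5, 10.0, 10.0 and 10.6. Secretoneurin was lower on replicates 1 and 3 and higher on replicates 2 and 4, which is the order of the dye swap. The ratios of -0.30, 0.10, -0.23 and 0.07 resolved into a secretoneurin effect of -0.09 ± 0.053 (SE, n = 4 arrays, limma, unadjusted p = 0.159, 95% interval -0.24 to 0.05). The dye effect of Cy5 over Cy3 was -0.17 (unadjusted p = 0.0305).

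The S-100 beta clone 52m05 held the smallest p of all markers. Its ratios were 0.05, 0.19, 0.17 and 0.15 on replicates 1 to 4, for an estimate of 0.14 ± 0.056 (SE, n = 4 arrays, limma, unadjusted p = 0.0641, adjusted p = 0.998). All 4 arrays lay above 0, but the signal was above background in secretoneurin RNA on replicates 1 and 3, where that RNA carried Cy5, and in control RNA on no array. With plain background subtraction the limma estimate was 0.27 ± 0.10 (unadjusted p = 0.0486, adjusted p = 0.999). From the authors' deposited table it was 0.26 ± 0.11 (unadjusted p = 0.0589). A further beta clone, 20k19, named after its values were seen, had the highest estimate of the 41. Its ratios were 0.25, 0.63, 0.29 and -0.09, and its estimate was 0.27 ± 0.14 (SE, n = 4 arrays, limma, unadjusted p = 0.117). Its control RNA was not above background on any array. Replicate 4 opposed the other arrays: without it the estimate was 0.45, and without replicate 2 it was 0.09. The beta clones 17m13 and 17p07 gave 0.00 and 0.01. The last beta clone, 60a09, was not above background in either channel on any array, and its ratios were 0.13, 0.13, 0.23 and 0.01, all above 0, for an estimate of 0.12 ± 0.058 (SE, n = 4 arrays, limma, unadjusted p = 0.0949). Its size depended on the background correction, with 0.55 after plain subtraction (unadjusted p = 0.0211, adjusted p = 0.999) and 0.57 from the ratios of the authors' deposited table (unadjusted p = 0.0046, adjusted p = 0.9997).

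Among the neuronal markers, the alpha-internexin clones had estimates below 0 and low signals. Clone 61e09 was never above background in either channel, with ratios of -0.14, 0.00033, -0.34 and -0.05 and an estimate of -0.13 ± 0.063 (SE, n = 4 arrays, limma, unadjusted p = 0.105). Clone 55o14 was above background only in control RNA on 1 array, with ratios of -0.20, -0.08, -0.12 and 0.29 and an estimate of -0.03 ± 0.084. The 2 clones shared values below 0 on replicates 1 and 3, where secretoneurin carried Cy5. On replicate 2 61e09 lay close to 0 and 55o14 below it, and on replicate 4 their signs were opposite. The fitted dye effects were -0.11 for 61e09 and -0.13 for 55o14 (limma, unadjusted p = 0.160 and 0.193).

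The 6 synuclein clones had estimates between -0.09 and 0.10, 3 above 0 and 3 below. The brightest, the beta-synuclein clone 27j15, had log2 levels of 8.93, 9.47, 9.19 and 8.25 in secretoneurin RNA on replicates 1 to 4. In control RNA its levels were 8.99, 8.86, 8.83 and 8.97. As in 27p11, the control levels differed little while the secretoneurin level was highest on replicate 2 and lowest on replicate 4. In 27j15 control RNA was not above background on replicate 3, nor was secretoneurin RNA on replicate 4. Its ratios of -0.05, 0.61, 0.36 and -0.72 gave 0.05 ± 0.25 (SE, n = 4 arrays, limma, unadjusted p = 0.856). A second beta-synuclein clone, 53p05, did not share this pattern, but it was dim. It was above background only in secretoneurin RNA on replicate 1 and in control RNA on replicate 2. Its ratios were -0.06, 0.23, 0.09 and 0.14, for an estimate of 0.10 ± 0.060 (limma, unadjusted p = 0.178).

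Neurogranin, which binds calmodulin at low calcium, was printed as 2 clones with estimates below 0. The brighter, 42a05, was above background in control RNA on all 4 arrays and in secretoneurin RNA on 2. Its log2 level in secretoneurin RNA was 9.07, 8.19, 9.51 and 8.46, and in control RNA 9.15, 8.62, 9.23 and 8.76, on replicates 1 to 4. The ratios were -0.08, -0.43, 0.29 and -0.30, with only replicate 3 above 0. The estimate was -0.13 ± 0.085 (SE, n = 4 arrays, limma, unadjusted p = 0.198) beside a dye effect of 0.23 (unadjusted p = 0.0485). It was -0.04 without replicate 1 and -0.22 without replicate 3.

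The other neurogranin clone, 22f07, had the lowest estimate of the 41, and 1 spot set it. Its ratios were 0.16, -0.16, 0.01 and -1.59 on replicates 1 to 4, for an estimate of -0.40 ± 0.25 (SE, n = 4 arrays, limma, unadjusted p = 0.192). Replicate 4 stood far below the other arrays. On that array 1 of its 2 spots was marked to be ignored, with a raw Cy3 intensity of 14762 over a local background of 8131 and a ratio of 3.96, and the remaining spot alone gave -1.59. With ignored spots kept the estimate was 0.305. Without replicate 2 the estimate was -0.75, and without replicate 4 it was -0.04.

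Neuromodulin (GAP-43, 60b11) was above background in secretoneurin RNA on 1 array and in control RNA on none. Its ratios were -0.35, 0.05, -0.19 and 0.31 on replicates 1 to 4, below 0 where secretoneurin carried Cy5 and above 0 where it carried Cy3. The estimate was -0.05 ± 0.074 (SE, n = 4 arrays, limma, unadjusted p = 0.564) beside a dye effect of -0.23 (unadjusted p = 0.0354).

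**Figure D4:**
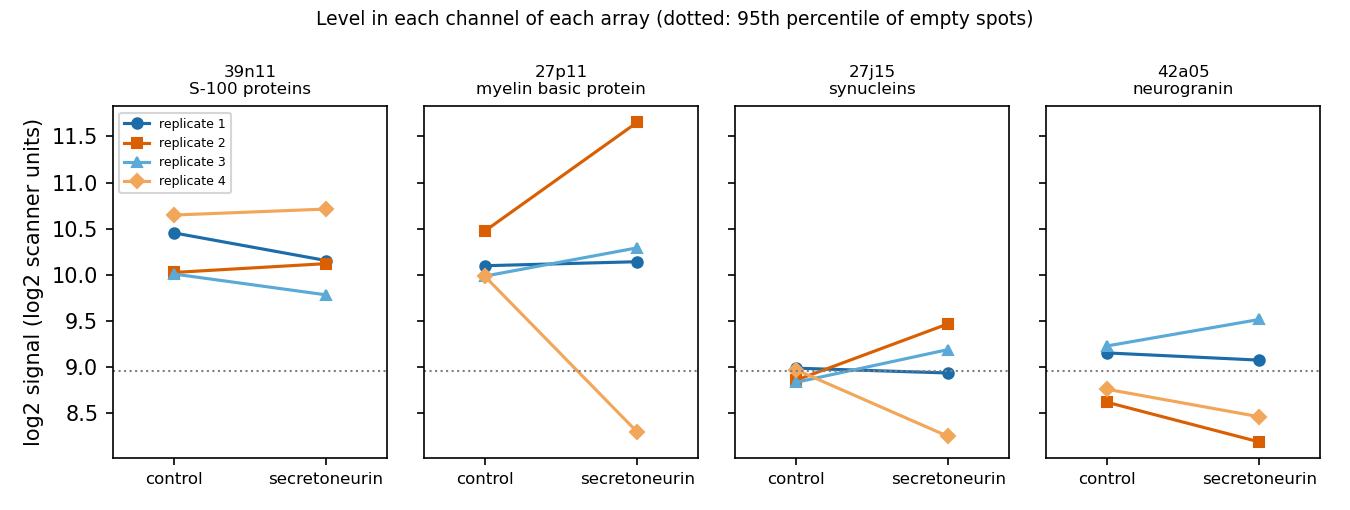
Log2 signal in scanner units (y axis) of control and secretoneurin RNA on each array for the S-100 alpha clone 39n11, the myelin basic protein clone 27p11, the beta-synuclein clone 27j15 and the neurogranin clone 42a05, with 1 line per array and a dotted line at the 95th percentile of empty and buffer spots (8.96). That percentile was taken on means over both channels and all 4 arrays, so it is not a background threshold for a single level. In 27p11 and 27j15 the line of replicate 2 runs up and that of replicate 4 runs down from similar control levels. The secretoneurin level of both clones on replicate 4 did not pass the background threshold.

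Genes with related roles gave the same count of calls, 0 in each list. The 5 probes of other intermediate filament proteins were all vimentin, a filament of glial and mesenchymal cells, with estimates from -0.13 to 0.11 and 0 with an unadjusted p under 0.05. The 66 probes for axon growth, neural adhesion and the neuronal cytoskeleton had a median of 0.026. Of these, 2 had an unadjusted p under 0.05 with a value above 0 and 3 with one below, against 1.20% and 1.56% of all probes. Those above 0 were a stathmin family clone (42a24, 0.25) and transgelin-3 (60h11, 0.16). Those below 0 were NDRG4 (58h01, -0.37), a tau-like microtubule-associated protein (13g01, -0.16) and neuronal kinesin heavy chain (59o24, -0.32 on 3 arrays). All 5 had an adjusted p of 0.998 and were named after their values were seen, as were the next 2.

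Of 24 probes of other glial genes, among them glutamine synthetase, brain fatty acid-binding protein, connexin 43 and glial glutamate transporters, 0 were above background in both channels on each of the 4 arrays, and their median was 0.015. The 1 with an unadjusted p under 0.05, against 2.76% of all probes, was the probe named proteolipid protein DM gamma (26i13). Its ratios were -0.16, -0.20, -0.38 and -0.16 on replicates 1 to 4, all below 0, for an estimate of -0.23 ± 0.065 (SE, n = 4 arrays, limma, unadjusted p = 0.023, adjusted p = 0.998). The probe named proteolipid protein 1b (42o06) had ratios of 0.23, 0.20, 0.22 and 0.0087, all above 0, and a limma estimate of 0.16 ± 0.061 (unadjusted p = 0.054). The estimates of these differently named probes had opposite signs.

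Probes of other cell types that a dispersed pituitary can hold also gave 0 calls. Globins were above background in both channels on each of the 4 arrays in 0 of 13 probes, muscle contractile genes in 10 of 94 and leukocyte genes in 5 of 42. Over all probes this share was 10.4%. The median estimates of these lists were 0.043, -0.0043 and -0.028. An unadjusted p under 0.05 was found in 0 globin probes, in 1 higher and 1 lower muscle probe, and in 4 lower and 0 higher leukocyte probes. Of the 42 leukocyte probes 29 had estimates below 0, and 4 were below 0 and 0 above 0 on all 4 arrays. Over all probes 4000 of 8089 had estimates below 0, and 5.55% were below 0 and 5.17% above 0 on all 4 arrays. An unadjusted p under 0.05 was found for 1.56% of all probes with a lower and 1.20% with a higher value. Whether the leukocyte list differed from all probes was not tested.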

How the data were processed

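RNA of secretoneurin-treated and control goldfish pituitary cells was measured on 4 arrays of 2 colours. Per the file headers, the deposited scanner files give for every spot a linear intensity and a local background per channel, without subtraction. The authors' deposited table holds log2 ratios with normalization not given in the sources used here, and it served as an alternative only. Background was corrected with normexp (offset 50), ratios were normalized by loess over each array (span 0.3, 4 iterations), control spots and spots marked to be ignored had no weight, and the spots of a clone were averaged. Of 8100 clones, 8089 had values on at least 3 arrays. They were fitted with limma 3.58.1 in R 4.3.3 with a dye and a secretoneurin effect (2 residual degrees of freedom). The test is two-sided and was checked on simulated arrays with independent noise. Those arrays did not hold the opposed ratios of replicates 2 and 4, so the check does not cover them. Levels per channel are log2 values after loess and Aquantile scaling. Values on every array are given for marker probes above background in both channels on each of the 4 arrays, for any with an unadjusted p under 0.05, and in each family, with all myelin proteins as 1 family, for the brightest probe and that of smallest p. Most other probes are given by range, and those added to this rule were chosen after their values were seen. In all, 14 alternatives were planned and 2 added after seeing the data. The members and lists were chosen with earlier results of these data known. The number of arrays limits the precision. The array names were used as printed, and no sequence or genome position is given for the clones.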

Additional observations from a re-analysis of the deposited data

Results flagged for a closer look

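The ratio of the myelin basic protein clone 60d15 on replicate 2 was 0.304, far from its 3 other values, which lay between 0.0052 and 0.047. It was the 1 set of 4 values, of 46 examined over probes and family means, in which 1 array stood apart by Dixon's criterion, and chance gives about 1 in 20. The probe was not above background in either channel on any array.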

How the results depend on the processing

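The count of all probes called was 0 in every setting except 3: without 1 replicate at a time it ranged from 0 to 437 (346 without replicate 2, 437 without replicate 4), and it was 1 with the sign of replicate 4 turned. The count of marker probes called ranged from 0 to 2 without 1 replicate at a time, with 27p11 and 22f07 called without replicate 2 and 27p11 and 20k19 without replicate 4, and it was 0 in the other settings. In those 2 fits only 1 array had secretoneurin in Cy3, and it was assumed to vary like the others. The count in 1 direction on all 4 arrays, 7 in the report, was 4 with print-tip loess, 4 with median centring, 2 in the authors' deposited table and 1 among the 7 marker probes above background in 1 channel on all 4 arrays. Over all probes the shares were, in the same order, 10.4%, 10.7%, 9.21% and, with that background filter, 7.78%, beside 10.7% in the main fit. The median of the markers was -0.0398 with that filter and -0.0251 with the sign of replicate 2 turned. The S-100 mean was 0.149 with background subtracted, 0.142 in the authors' deposited table and -0.0175 with the sign of replicate 2 turned. Turning a sign was an alternative chosen after seeing the data. Over all settings, including the 2 with a sign turned, 13 of the 41 marker probes kept the sign of their estimate and 28 did not in at least 1. The share over all probes is not given here, so these counts are not read as particular to the markers. Among the probes given by the naming rule, the estimates that changed sign were those of 27p11 (-0.756 to 0.676 without 1 replicate at a time, 0.0259 without replicate 1, 0.928 with replicate 4 turned), 27j15 (-0.0124 with background subtracted, -0.00625 with median centring, -0.286 to 0.382 without 1 replicate at a time, -0.0541 without replicate 3, -0.413 with replicate 2 turned), 55o14 (0.0579 with no background correction, -0.12 to 0.0659 without 1 replicate at a time, 0.106 with replicate 2 turned), 22f07 (0.305 with ignored spots kept, 0.213 with replicate 4 turned) and 60b11 (-0.111 to 0.0191 without 1 replicate at a time, 0.0562 with replicate 2 turned). Family means also changed sign: neurogranin (0.0949 with ignored spots kept, 0.0412 with replicate 4 turned), myelin basic protein (0.00162 in the authors' deposited table, 0.02 without replicate 4, 0.0365 with replicate 4 turned), alpha-internexin (0.00225 with replicate 2 turned) and the synucleins (-0.0739 to 0.0739), while that of the other myelin proteins did not. The cause of these sign changes was not tested. The myelin basic protein mean was given in 10 alternatives, against 14 for the other family means. It was not given without replicate 1, 2 or 3, nor with replicate 2 turned, so its sign there is not known. With only probes above background in both channels on each of the 4 arrays, 1 marker was left and no median or family mean could be given. The analysis was paired by construction, since each array's ratio is the difference within 1 pair of RNAs, and no further block could be fitted.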
